A study of Mus musculus with 18 samples.

Results

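Neuronal microtubule and growth cone genes were followed across mouse cerebellar granule neuron progenitors (GNPs) and medulloblastomas (MBs). They were chosen by symbol and are 10 of the 19057 genes with a probe on the array. They were Tubb3, Dcx, Dclk1, Stmn2, Stmn3, Stmn4, Map2, Map6, Mapt and Map1b. Values come from the probe of a gene that was brightest on average over all 18 arrays, and its other probes served as a check. Expression was measured on MouseWG-6 v2.0 BeadChips in 2 MBs and 16 GNP samples. The MBs came from symptomatic mice, 1 from an NdpKO;Ptch+/- animal and 1 from a Ptch+/- animal, although the labels also give the tumours postnatal day 6. The GNPs were purified at postnatal day 6, by Percoll gradient and pre-plating, from NdpKO;Ptch+/-, Ptch+/-, NdpKO and wild-type (WT) cerebella, with 4 arrays each and every array from a different animal. Ptch+/- mice lack 1 copy of Ptch1, the receptor that restrains hedgehog signalling, in all cells. NdpKO mice carry a lacZ cassette in Ndp, an X-linked gene for the Frizzled4 ligand Norrin. By the crosses of the paper, NdpKO and NdpKO;Ptch+/- animals were males that lacked Ndp in all cells. The other controls included both sexes, so sex and Ndp genotype cannot be told apart. Dcx also lies on the X chromosome. The strain was labelled C57Bl/6 for WT and Ptch+/- arrays and mixed for NdpKO arrays. By the paper, compound mutants were compared with controls of the same breeding cohort, but strain as labelled and genotype cannot be told apart. The labels of 1 array disagreed. It was NdpKO;Ptch+/- replicate 2 by title and description and an Ndp knockout by source, and it was grouped by title.

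Microtubules are polymers of alpha- and beta-tubulin that fill axons and dendrites, and their plus ends explore the growth cone at the tip of a growing neurite. Neuronal stathmins bind tubulin dimers and favour disassembly, whereas doublecortin and the structural microtubule-associated proteins bind the lattice and stabilise or bundle it. In the cerebellum, granule neuron progenitors divide in the outer external granule layer and switch on this machinery as they leave the cycle, extend parallel fibres and migrate inward, so these genes are widely used as markers of young neurons.

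Upstream sequence is shown for 3 of the members whose level differed between MBs and GNPs, since the members did not move in one direction there: Map2 was higher in MBs and Stmn3 was lower, and the probes of Dclk1 moved in opposite directions. Each line holds the 250 bases before a RefSeq transcript start, on GRCm38.p6, written 5′ to 3′ on the strand of the gene. Dclk1 has 2 such windows, at separate starts. The Map2 window and the first Dclk1 window run past the annotated start of their gene, at 66175202 and 55242303. The second Dclk1 window lies within the annotated gene. Capitals mark matches on either strand to the GC box GGGCGG, the TATA box TATAAA, the CCAAT box CCAAT or the E-box CANNTG.
Map2, chr1:66175079-66175328, plus strand: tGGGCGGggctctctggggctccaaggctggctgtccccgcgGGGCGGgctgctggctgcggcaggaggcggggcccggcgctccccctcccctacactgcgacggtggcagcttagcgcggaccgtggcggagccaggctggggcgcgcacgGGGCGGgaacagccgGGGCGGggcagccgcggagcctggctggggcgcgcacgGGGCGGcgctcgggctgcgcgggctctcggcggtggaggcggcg
Stmn3, chr2:181314501-181314750, minus strand: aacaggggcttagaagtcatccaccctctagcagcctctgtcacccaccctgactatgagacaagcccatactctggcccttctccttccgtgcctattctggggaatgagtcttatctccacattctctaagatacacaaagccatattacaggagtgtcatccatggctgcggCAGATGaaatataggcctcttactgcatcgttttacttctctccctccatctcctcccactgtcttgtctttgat
Dclk1 first window, chr3:55242114-55242363, plus strand: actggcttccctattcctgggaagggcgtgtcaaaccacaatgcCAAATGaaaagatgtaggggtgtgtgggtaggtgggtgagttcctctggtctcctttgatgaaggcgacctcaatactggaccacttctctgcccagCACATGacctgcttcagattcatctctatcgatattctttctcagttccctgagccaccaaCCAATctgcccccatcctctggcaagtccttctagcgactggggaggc
Dclk1 second window, chr3:55461478-55461727, plus strand: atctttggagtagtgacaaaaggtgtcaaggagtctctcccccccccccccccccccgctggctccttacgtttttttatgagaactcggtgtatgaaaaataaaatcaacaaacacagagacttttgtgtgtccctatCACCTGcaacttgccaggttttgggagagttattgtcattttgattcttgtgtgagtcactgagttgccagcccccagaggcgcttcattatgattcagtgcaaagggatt

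The Map2 window was 81.2% G and C and held 5 GC boxes. The Stmn3 window was 48.8% G and C and held 1 E-box. For Dclk1, the first window held 2 E-boxes and 1 CCAAT box at 52.4% G and C, and the second held 1 E-box at 46.8%. Of 32851 RefSeq windows of the same length, 32.7% held a GC box, 12.4% a TATA box, 33.8% a CCAAT box and 66.2% an E-box. Windows were matched for 6 of the 10 genes. Among those not printed, Tubb3 held 2 GC boxes and 1 CCAAT box, Map1b held 1 GC box, 1 TATA box and 1 E-box, and both overlapping Dcx windows held 1 TATA box.

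Values are on the log2 scale as normalised by the authors. Every array had a median of 4.13 over 45281 probes, and between 23.0% and 23.9% of them reached level 5, used here as the limit near background. No 2 arrays were identical. As a check of the labelled cells, Rbfox3, a marker of postmitotic granule neurons, read 12.03 to 12.79 over all 18 arrays and Neurod1 read 6.95 to 8.62, whereas the probes of Atoh1, the defining transcription factor of GNPs, and of Gli1 lay at background on every array. Top2a read 10.19 to 10.76 and Zic1 read 12.70 to 13.10 over all 18 arrays. Of the 8 proliferating progenitor list genes on the array, 5 reached level 5, and the list summed to 8180 to 10100 over the GNP arrays. The paper detected Atoh1 and Gli1 by in situ hybridisation in MBs of both genotypes, so no level of either can be given here. Markers of other cells were present too. The Purkinje cell marker Pcp2 read 4.12 and 4.55 in the MBs, against 7.20 to 10.31 in GNP arrays, and the interneuron marker Gad1 read 4.14 and 4.54 in MBs, against 8.20 to 9.65 in GNP arrays.

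**Figure D1:**
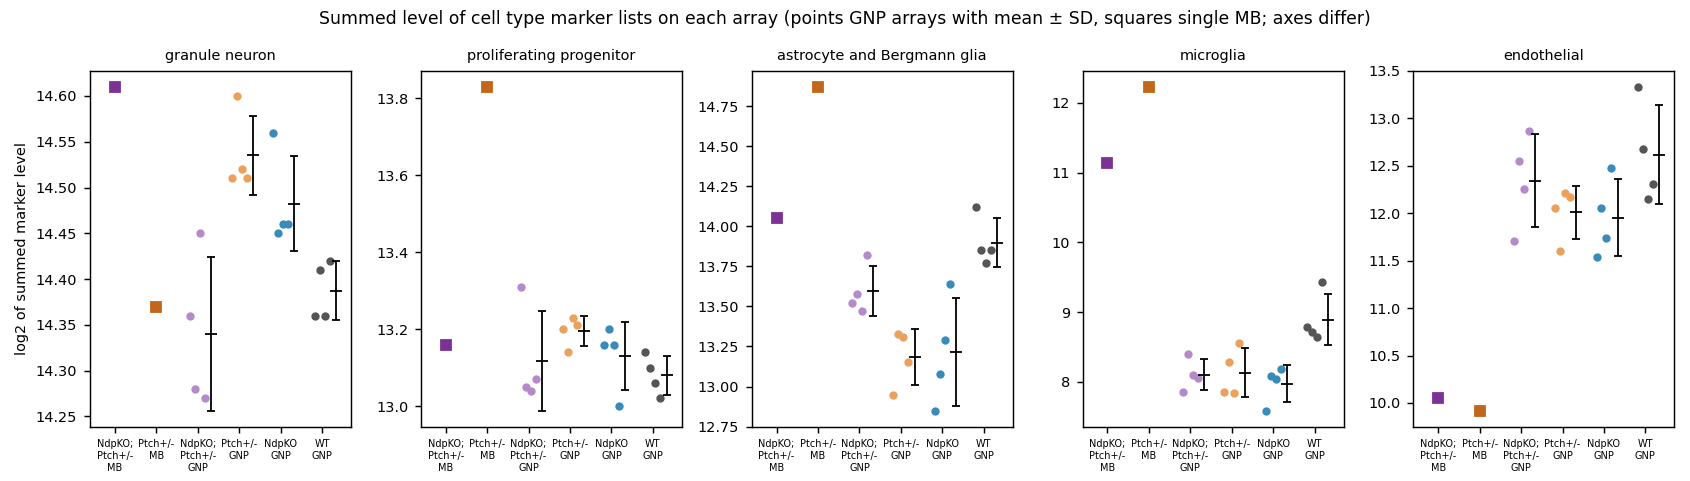
Log2 of the summed level of 5 cell type marker lists (vertical axis) on each array, by group (horizontal axis). Squares are the single MBs, points are GNP arrays and bars give the mean ± SD of 4. Both MBs lay above all GNP arrays for the microglial list (2250 and 4800, against 193 to 692 on the linear scale) and below them for the endothelial list (1060 and 969, against 2980 to 10300).

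Of the 10 genes, 9 were measured, with their carrying probe above level 5 on all 18 arrays. Tubb3, the beta-tubulin used as a general marker of young neurons, was the exception. Its only probe read 4.12 and 4.11 in the MBs and 4.10 to 4.13 on the 16 GNP arrays, so no level of Tubb3 can be given. Of the 37 probes of the 10 genes, 18 reached level 5 on any array. Levels of different genes come from different probes and are not ranked against each other.

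**Figure D2:**
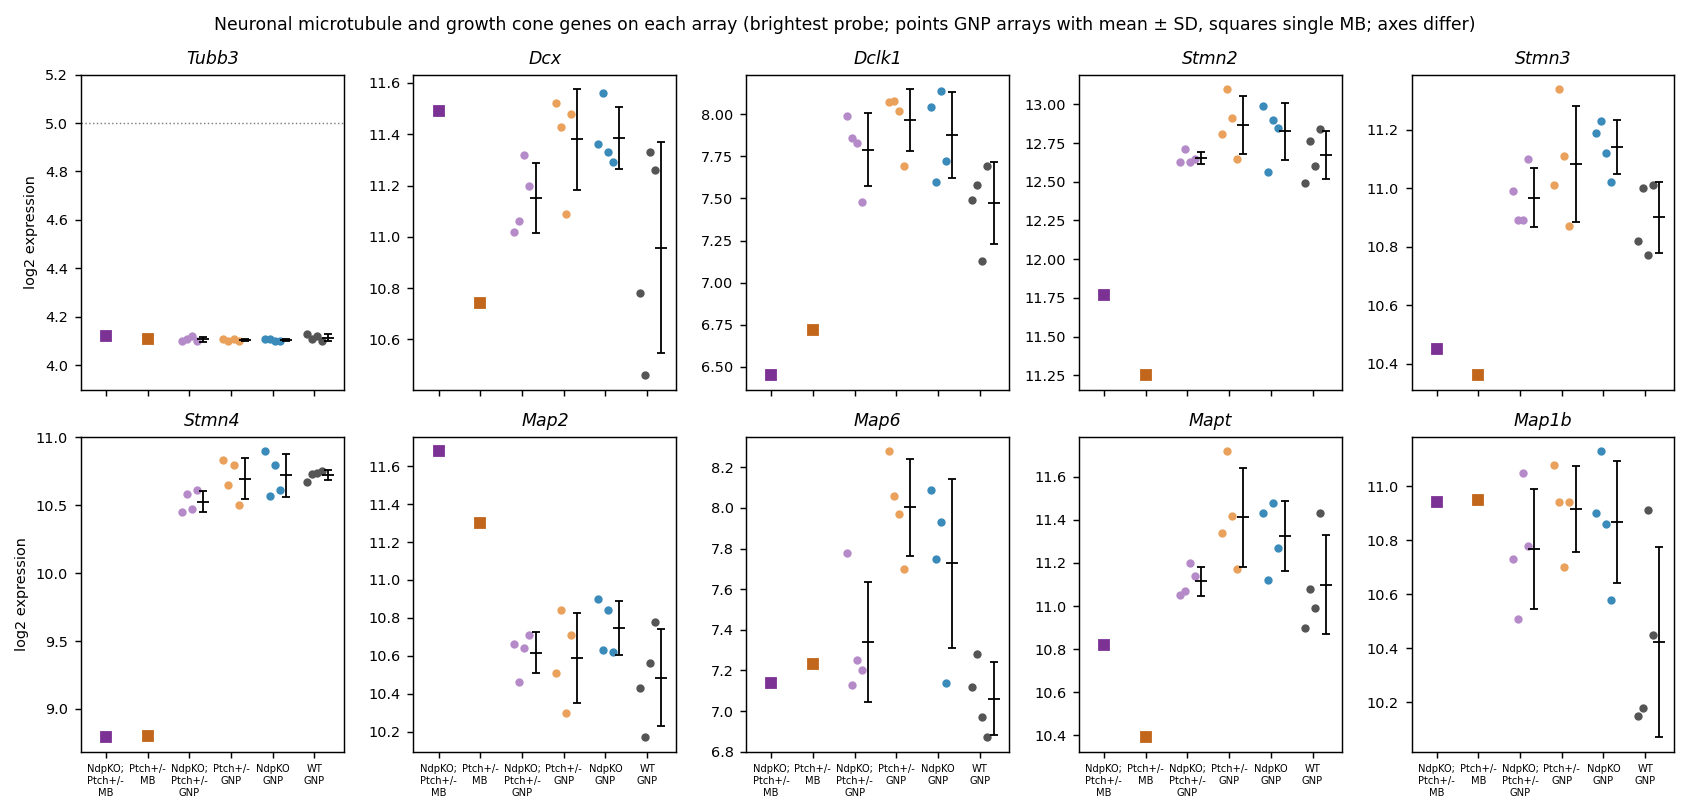
Log2 level of each gene (vertical axes, which differ in range) in the 2 MBs (squares) and the 4 GNP genotypes (points, with mean ± SD of 4 arrays). Stmn2, Stmn3, Stmn4, Dclk1 and Mapt lie lower in both MBs than in the 8 GNP arrays of the same genotypes and Map2 lies higher, while Tubb3 stays between 4.10 and 4.13.

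Among the GNPs the genes varied by different amounts. Over the 16 GNP arrays Map6 spanned 1.41, the widest range of the 9, and its genotype means spanned 0.95. Stmn4 spanned 0.45, the narrowest range, with genotype means within 0.20 of each other. The SD within a genotype ran between 0.12 for Stmn4 and 0.30 for Map6. The highest genotype mean was that of Ptch+/- GNPs for 5 genes, of NdpKO GNPs for 3 and of WT GNPs for 1. The lowest was that of WT GNPs for 7 genes and of NdpKO;Ptch+/- GNPs for 2, Stmn2 and Stmn4. A test for any difference among the 4 genotypes called 0 of the 9 genes (limma's moderated F test, Benjamini-Hochberg adjusted), where 0.221% of all probes were called. At an unadjusted p below 0.05, 2 genes passed, against 10.7% of all probes. Here and below, shares at an unadjusted p take in the many probes under level 5. They were not taken over genes at level 5 or more, so they are not like for like with these 9. These were Dclk1 (adjusted p = 0.43) and Map6 (adjusted p = 0.15). The order of the genotype means was not tested for any of the 9.

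**Figure D3:**
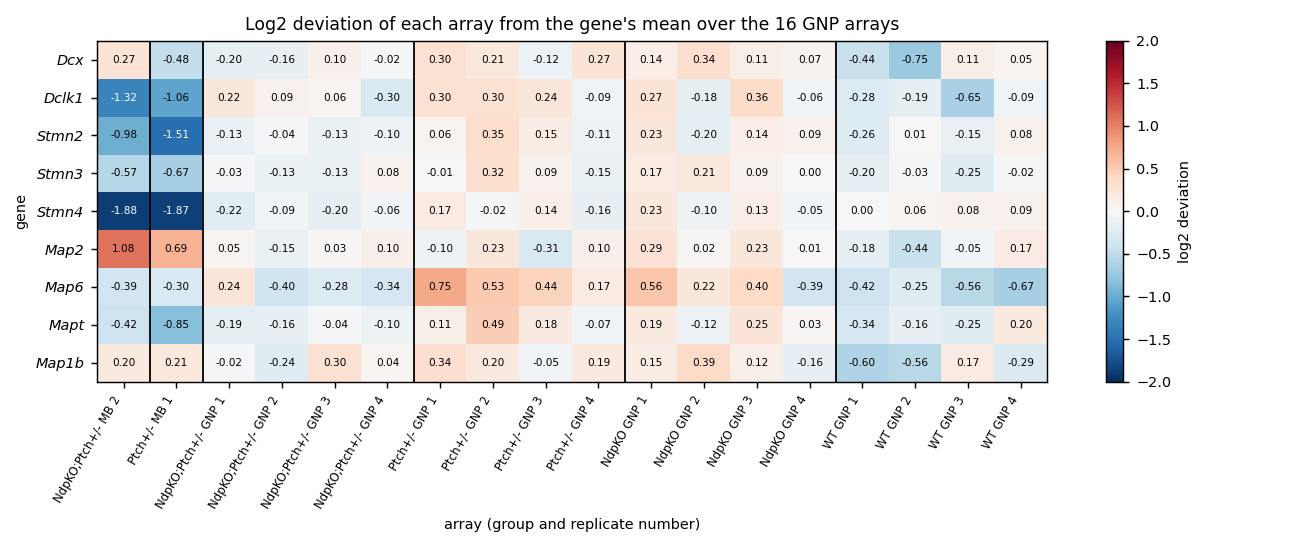
Log2 deviation of each array (columns, grouped by tissue and genotype) from the mean of the 16 GNP arrays of that gene (rows, the 9 measured genes). Red is above and blue below that mean. Map6 is above its mean on all 4 Ptch+/- arrays (0.17 to 0.75) and below it on all 4 WT arrays (-0.67 to -0.25).

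The comparison of Ptch+/- with WT GNPs asks what loss of 1 Ptch1 copy does before tumours form. Map6, which encodes a protein that shields microtubules from depolymerisation in the cold, read 8.28, 8.06, 7.97 and 7.70 in Ptch+/- GNPs, against 7.12, 7.28, 6.97 and 6.87 in WT GNPs. The lowest Ptch+/- array lay above the highest WT array. Map6 was 0.95 ± 0.20 (SE) higher on the log2 scale, or 1.93-fold (limma, adjusted p = 0.048), and it was the only one of the 9 genes called, where 1.09% of all probes were called and 4.79% had groups that did not overlap with Ptch+/- higher. Over the 8007 genes that, like these 9, had a level of 5 or more, 3.71% were called and 11.1% had Ptch+/- arrays wholly above WT, so 1 gene of 9 is near the share of measured genes. The call rested on all 8 arrays, since the adjusted p ran between 0.061 and 0.13 when any of them was left out, at differences of 0.86 to 1.05. In bulk samples, a lower share of cells of a type and less RNA per cell cannot be told apart.

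The other Map6 probes did not all give the same value. Probe ILMN_1213815, annotated to a cDNA record, read 6.00, 6.52, 6.52 and 6.07 in Ptch+/- GNPs, against 4.23, 4.88, 4.25 and 4.22 in WT GNPs, which all lay below level 5. It was at least 2.43-fold higher in Ptch+/- GNPs (adjusted p = 0.019). Probe ILMN_2744006 averaged 5.30 in Ptch+/- GNPs and 5.10 in WT GNPs, with overlapping groups and a difference of 0.20 ± 0.39 (SE, adjusted p = 0.91).

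The remaining genes moved less. Dclk1, a kinase with doublecortin domains, read 8.07, 8.08, 8.02 and 7.69 in Ptch+/- GNPs, against 7.49, 7.58, 7.13 and 7.69 in WT GNPs, a difference of 0.49 ± 0.16 (adjusted p = 0.17). Map1b, which supports axon growth, read 11.08, 10.94, 10.70 and 10.94 in Ptch+/- GNPs, against 10.15, 10.18, 10.91 and 10.45 in WT GNPs, also a difference of 0.49 ± 0.17 (adjusted p = 0.21). In both genes the groups overlapped, through replicate 4 of both groups for Dclk1 and replicate 3 of WT for Map1b. That Map1b probe is annotated to a cDNA record, and a second bright probe, ILMN_2737867, to a RefSeq transcript. The second probe gave 0.19 ± 0.16 (limma, unadjusted p = 0.27, adjusted p = 0.72). Dcx, which encodes doublecortin, read 11.52, 11.43, 11.09 and 11.48 in Ptch+/- GNPs, against 10.78, 10.46, 11.33 and 11.26 in WT GNPs, and differed by 0.43 ± 0.17 (adjusted p = 0.29). Mapt, the gene of the axonal protein tau, differed by 0.31 ± 0.13 (adjusted p = 0.31). The stathmins Stmn2 and Stmn3 and dendritic Map2 differed by 0.19, 0.18 and 0.10, and Stmn4 by -0.03, with adjusted p-values from 0.43 to 0.95. Another Map2 probe, ILMN_1226082, differed by -0.20 ± 0.30 (limma, adjusted p = 0.87).

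Of the 9 genes, 8 had a difference above 0, with a median of 0.31, and 5 had an unadjusted p below 0.05, a level that 13.2% of all probes passed. Map1b was among these 5 through its brightest probe alone. Over the 8007 measured genes, 51.8% of the differences lay above 0 and the median was 0.01. Marker lists moved as well in this comparison. The summed astrocyte and Bergmann glia list, 7 of 8 genes at or above level 5, ran between 7910 and 10300 in Ptch+/- GNPs, against 14000 to 17800 in WT GNPs. The summed granule neuron list, 7 of 9 genes, ran between 23300 and 24800 in Ptch+/- GNPs, against 21000 to 22000 in WT GNPs. The microglial list, 7 of 8 genes, ran between 230 and 378 in Ptch+/- GNPs, against 398 to 692 in WT GNPs, and the endothelial list, 7 of 8 genes, between 3100 and 4720 in Ptch+/- GNPs, against 4540 to 10300 in WT GNPs. The proliferating progenitor list, 5 of 8 genes, ran between 9050 and 9610 in Ptch+/- GNPs, against 8300 to 9020 in WT GNPs. The endothelial list overlapped between the groups, and the other lists given here did not. Their part in the differences of the microtubule genes was not tested.

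**Figure D4:**
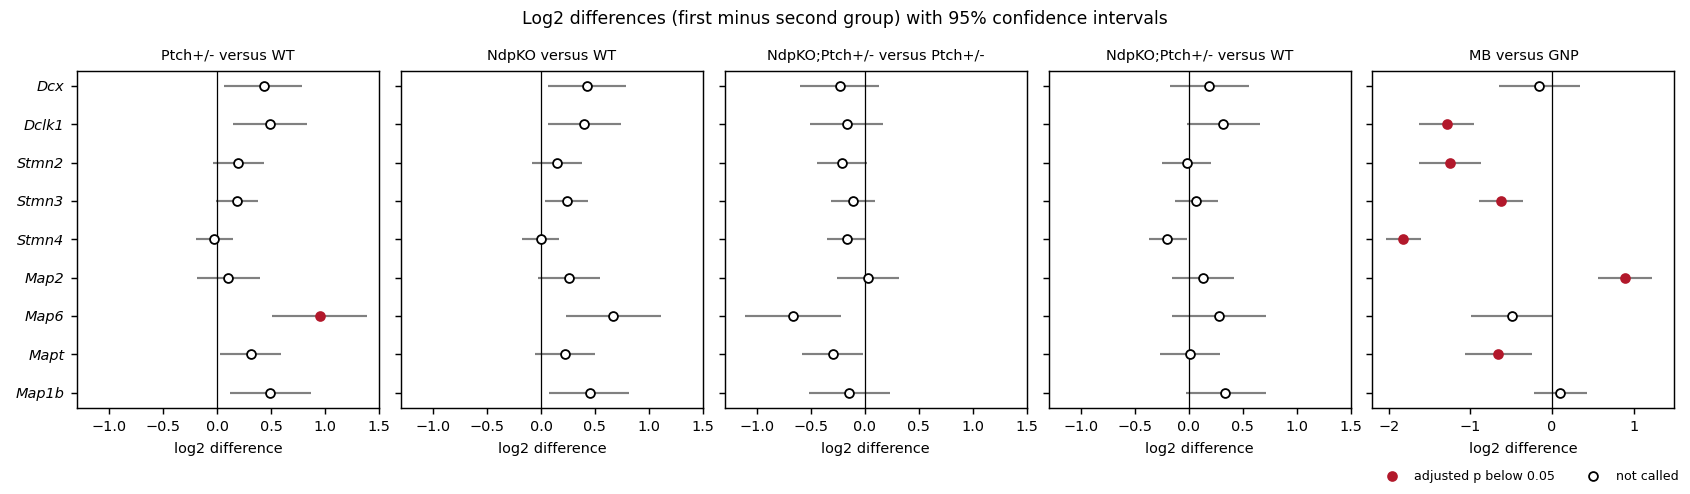
Log2 difference of the first group minus the second (horizontal axes) for the 9 measured genes in 5 comparisons, with 95% confidence intervals. Filled points passed an adjusted p of 0.05. The interval of Map6 in Ptch+/- versus WT runs from 0.51 to 1.39, and that of Stmn4 in MB versus GNP from -2.03 to -1.61.

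NdpKO GNPs were set against WT GNPs to ask what loss of Norrin alone does. None of the 9 genes was called, where 0.307% of all probes were. At an unadjusted p below 0.05, 5 genes passed, against 10.9% of all probes. Map6 read 8.09, 7.75, 7.93 and 7.14 in NdpKO GNPs, against 7.12, 7.28, 6.97 and 6.87 in WT GNPs. NdpKO replicate 4 lay within the WT range and the other 3 lay above it. The difference was 0.67 ± 0.20 (adjusted p = 0.21), and 0.87 (adjusted p = 0.045) without NdpKO replicate 4. Without that array 401 of all probes were called, against 139 with it.

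Stmn3, a stathmin of neurons, was the single gene whose groups did not overlap in this comparison. It read 11.19, 11.23, 11.12 and 11.02 in NdpKO GNPs, against 10.82, 11.00, 10.77 and 11.01 in WT GNPs, where 2.90% of all probes and 5.83% of the measured genes had NdpKO arrays wholly above WT. The gap between the lowest NdpKO array and the highest WT array was small beside the spread, and the difference of 0.24 ± 0.092 was not called (adjusted p = 0.34). Dcx, Dclk1 and Map1b differed by 0.43, 0.40 and 0.45, with adjusted p-values of 0.35 to 0.37. At its second probe, ILMN_2737867, Map1b differed by 0.20 ± 0.16 (limma, unadjusted p = 0.24, adjusted p = 0.74). Of the 9 genes, 8 lay above 0, with a median of 0.26, against a median of 0.01 over the 8007 measured genes. The comparisons of Ptch+/- and of NdpKO with WT GNPs share the WT arrays. The astrocyte and Bergmann glia list ran between 7400 and 12700 in NdpKO GNPs, with its highest value in replicate 4, against 14000 to 17800 in WT GNPs. The granule neuron list ran between 22400 and 24200 in NdpKO GNPs, against 21000 to 22000 in WT GNPs, and the microglial list between 193 and 290 in NdpKO GNPs, against 398 to 692 in WT GNPs. None of these 3 lists overlapped between the groups, and their part was not tested.

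NdpKO;Ptch+/- GNPs carry both lesions. Against Ptch+/- GNPs, which differ by Ndp, 0 of the 9 genes were called, as were 0.0155% of all probes, and 2 genes passed an unadjusted p of 0.05, against 8.67% of all probes. Map6 read 7.78, 7.13, 7.25 and 7.20 in NdpKO;Ptch+/- GNPs, against 8.28, 8.06, 7.97 and 7.70 in Ptch+/- GNPs. Replicate 1 of NdpKO;Ptch+/- lay within the Ptch+/- range and the other 3 lay below it. The difference was -0.67 ± 0.20 (adjusted p = 0.36). Mapt read 11.05, 11.07, 11.20 and 11.14 in NdpKO;Ptch+/- GNPs, against 11.34, 11.72, 11.42 and 11.17 in Ptch+/- GNPs, and differed by -0.30 ± 0.13 (adjusted p = 0.54). Of the 9 genes, 8 lay below 0, with a median of -0.17, against -0.01 over all measured genes. The second Map1b probe, ILMN_2737867, differed by 0.04 ± 0.16, against -0.15 at the brightest.

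Against NdpKO GNPs, all 9 differences lay below 0, with a median of -0.17, and 0 were called, as were 0.00442% of all probes. Some other probes lay above 0, with Map2 probe ILMN_1226082 at 0.08 ± 0.30 and Map1b probe ILMN_2737867 at 0.03 ± 0.16. At an unadjusted p below 0.05, 1 gene passed, against 5.60% of all probes, Stmn4 at -0.19 ± 0.081 (adjusted p = 0.87). Against WT GNPs, 7 of 9 differences lay above 0, with a median of 0.13, and 0 were called, as were 0.0508% of all probes. Stmn4 read 10.45, 10.58, 10.47 and 10.61 in NdpKO;Ptch+/- GNPs, against 10.67, 10.73, 10.74 and 10.75 in WT GNPs. Its groups did not overlap, as was so with NdpKO;Ptch+/- lower for 1.80% of all probes and 3.22% of the measured genes, and the difference was -0.20 ± 0.081 (adjusted p = 0.64), the 1 gene with an unadjusted p below 0.05, against 6.95% of all probes. The astrocyte and Bergmann glia list ran between 11400 and 14500 in NdpKO;Ptch+/- GNPs, above the 7910 to 10300 of Ptch+/- GNPs and overlapping the 14000 to 17800 of WT GNPs. The granule neuron list ran between 19700 and 22300 in NdpKO;Ptch+/- GNPs, against 23300 to 24800 in Ptch+/- GNPs and 22400 to 24200 in NdpKO GNPs. The microglial list ran between 233 and 337 in NdpKO;Ptch+/- GNPs, below the 398 to 692 of WT GNPs. The part of these markers was not tested.

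Whether the difference with Ndp loss depended on Ptch genotype was tested as an interaction, the NdpKO;Ptch+/- minus Ptch+/- difference less the NdpKO minus WT difference. At their brightest probes, all 9 genes had an interaction below 0, between -1.34 for Map6 and -0.17 for Stmn4. The median was -0.53, against a median of -0.02 over the 8007 measured genes. Map2 probe ILMN_1226082 went the other way, at 0.28 ± 0.42 (limma, adjusted p = 0.85). The interaction of Map6 was -1.34 ± 0.29 (adjusted p = 0.063). None of the 9 was called, where 0.495% of all probes and 1.77% of the measured genes were. At an unadjusted p below 0.05, 7 genes passed, against 13.3% of all probes. No such share was taken over the measured genes, so how far these 7 exceed it was not tested. Dcx, Map1b, Dclk1 and Mapt followed Map6 at -0.66, -0.59, -0.57 and -0.53, with adjusted p-values from 0.21 to 0.30. For Map1b this rested on its brightest probe. The second probe, ILMN_2737867, gave -0.16 ± 0.23 (limma, unadjusted p = 0.50, adjusted p = 0.84). Marker lists moved in this contrast as well. The median interaction was -0.33 over the granule neuron list and -0.28 over the proliferating progenitor list. It was 1.45 for astrocyte and Bergmann glia, 1.55 for endothelial, 1.33 for Purkinje cell and interneuron and 0.16 for microglial markers. Grin2b and Cntn2 of the granule neuron list were called lower and the astrocyte gene Sox9 higher. The part of these lists was not tested.

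The Map6 interaction changed sides of the threshold with the arrays used. It was -1.68 (adjusted p = 0.00072) without NdpKO;Ptch+/- replicate 1 and NdpKO replicate 4, which had stood apart from their groups in earlier results of these data and also held the Map6 values farthest from their group. At the dimmer probe ILMN_1213815 the interaction was called, at -2.52 ± 0.43 (adjusted p = 0.039). That probe read 5.53, 4.46, 4.55 and 4.38 in NdpKO;Ptch+/- GNPs and 6.03, 5.25, 5.54 and 4.68 in NdpKO GNPs. A further Map6 probe, ILMN_2744006, was not called, at -0.22 ± 0.56 (limma, adjusted p = 0.92). Leaving out the same 2 arrays also gave Map6 an adjusted p of 0.013 for NdpKO;Ptch+/- versus Ptch+/- GNPs (-0.81), 0.036 versus NdpKO GNPs (-0.73) and 0.011 for NdpKO versus WT GNPs (0.87). Calls over all 45281 probes rose as well, from 7 to 922, from 2 to 656 and from 139 to 1070 in these comparisons. For the interaction they rose from 224 to 2577.

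Tissue was compared between the 2 MBs and the 8 NdpKO;Ptch+/- and Ptch+/- GNP arrays, with genotype as a covariate. Of the 9 genes, 5 were lower in MBs and 1 was higher, where 6.06% and 8.61% of all probes were called in these directions (14.7% in all) and 36.0% of the 8007 measured genes were called. The same 6 genes had no overlap between MBs and GNPs, as was so for 11.8% of all probes with MBs lower and 11.3% with MBs higher, and for 25.7% and 21.2% of the measured genes. There was 1 whole tumour per genotype, so tissue, age and cell purification cannot be told apart. No replicate tumour of either genotype was analysed here, and the spread comes mainly from the GNPs.

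The 3 stathmins were all lower. Stmn4 read 8.79 in the NdpKO;Ptch+/- MB and 8.80 in the Ptch+/- MB, against 10.45, 10.58, 10.47 and 10.61 in NdpKO;Ptch+/- GNPs and 10.83, 10.65, 10.80 and 10.50 in Ptch+/- GNPs. Both tumours lay far below every GNP array. The difference was -1.82 ± 0.090, or 3.52-fold lower (adjusted p = 7.1e-06), and a second probe, ILMN_2590845, gave -1.72 (adjusted p = 8.2e-05). Stmn2, which encodes a membrane-anchored stathmin of growth cones, read 11.77 in the NdpKO;Ptch+/- MB and 11.25 in the Ptch+/- MB, against 12.63, 12.71, 12.63 and 12.65 in NdpKO;Ptch+/- GNPs and 12.81, 13.10, 12.91 and 12.65 in Ptch+/- GNPs. Again no tumour reached the lowest GNP array, and Stmn2 was 2.38-fold lower (-1.25 ± 0.16, adjusted p = 0.0016).

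Stmn3 read 10.45 and 10.36 in the NdpKO;Ptch+/- and Ptch+/- MBs, against 10.99, 10.89, 10.89 and 11.10 in NdpKO;Ptch+/- GNPs and 11.01, 11.34, 11.11 and 10.87 in Ptch+/- GNPs. It was 1.54-fold lower (-0.62 ± 0.11, adjusted p = 0.0086), the smallest of the 3 stathmin differences. The call was lost without the Ptch+/- MB (-0.52, adjusted p = 0.11). Stmn4, Stmn2 and Dclk1 stayed below an adjusted p of 0.05 without any 1 of the 10 arrays and under all 11 other settings.

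Of the doublecortin family, Dclk1 was lower at its brightest probe and Dcx was not called. Dclk1 read 6.45 in the NdpKO;Ptch+/- MB and 6.72 in the Ptch+/- MB, against 7.99, 7.86, 7.83 and 7.48 in NdpKO;Ptch+/- GNPs and 8.07, 8.08, 8.02 and 7.69 in Ptch+/- GNPs. It was 2.45-fold lower, with no overlap (-1.29 ± 0.14, adjusted p = 0.00068). Dclk1 probe ILMN_1259689, annotated to a cDNA record, went the other way, at 5.55 in the NdpKO;Ptch+/- MB and 4.92 in the Ptch+/- MB, against 4.12 to 4.19 over the 8 GNP arrays. It was called higher in MBs (adjusted p = 0.00051), at least 1.18-fold, and lay above level 5 in the NdpKO;Ptch+/- MB alone. Dcx read 11.49 in the NdpKO;Ptch+/- MB and 10.74 in the Ptch+/- MB, against 11.02 to 11.32 in NdpKO;Ptch+/- GNPs and 11.09 to 11.52 in Ptch+/- GNPs. The tumours lay on either side of their GNPs, above for NdpKO;Ptch+/- and below for Ptch+/-.

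Among the structural microtubule-associated proteins, Map2 was higher and Mapt lower in MBs. Map2 read 11.68 in the NdpKO;Ptch+/- MB and 11.30 in the Ptch+/- MB, against 10.66, 10.46, 10.64 and 10.71 in NdpKO;Ptch+/- GNPs and 10.51, 10.84, 10.30 and 10.71 in Ptch+/- GNPs. Both tumours lay above every GNP array, 1.85-fold on average (0.89 ± 0.14, adjusted p = 0.0045). The call was lost without the NdpKO;Ptch+/- MB (0.71, adjusted p = 0.064). A pair of Map2 probes annotated to cDNA records were higher by more. Probe ILMN_1226082 read 9.81 and 9.65 in the NdpKO;Ptch+/- and Ptch+/- MBs, against 5.71 to 7.12 over the 8 GNP arrays, 10.5-fold higher (adjusted p = 0.00042). Probe ILMN_1240895 read 7.15 and 8.03 in the same MBs, against 4.14 to 4.47 over the 8 GNP arrays, at least 6.01-fold higher (adjusted p = 1.8e-05). The 3 Map2 probes that reached level 5 thus had the same direction and differed in size.

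**Figure D5:**
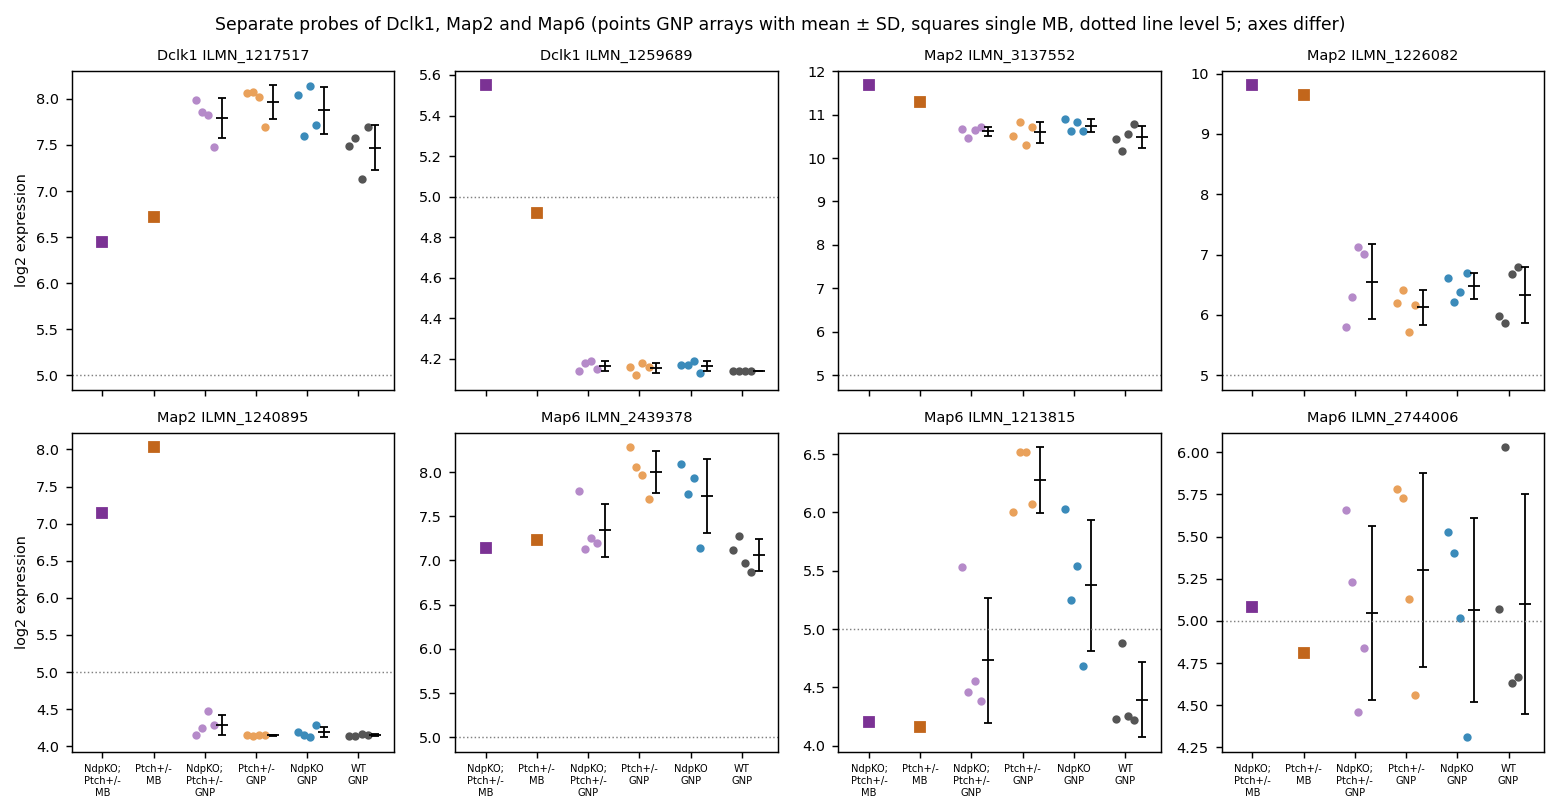
Log2 level (vertical axes, which differ in range) at separate probes of Dclk1, Map2 and Map6 by group, with squares for single MBs, points for GNP arrays, bars for mean ± SD of 4 arrays and a dotted line at level 5. The probes of Dclk1 move in opposite directions in MBs, while the 3 Map2 probes are all higher there (differences of 0.89, 3.40 and 3.37).

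Mapt read 10.82 in the NdpKO;Ptch+/- MB and 10.39 in the Ptch+/- MB, against 11.05, 11.07, 11.20 and 11.14 in NdpKO;Ptch+/- GNPs and 11.34, 11.72, 11.42 and 11.17 in Ptch+/- GNPs. It was 1.58-fold lower with no overlap (-0.66 ± 0.18, adjusted p = 0.046). That call was among the least stable, as 2 of the 10 fits with 1 array left out retained it, and the difference was -0.29 (adjusted p = 0.47) without the Ptch+/- MB. Map1b read 10.94 and 10.95 in the NdpKO;Ptch+/- and Ptch+/- MBs and differed by 0.10 ± 0.14 (adjusted p = 0.74). Map6 read 7.14 and 7.23 in the NdpKO;Ptch+/- and Ptch+/- MBs, within the range of WT GNPs, and differed from its GNPs by -0.49 ± 0.22 (adjusted p = 0.21).

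The tumours also differed from each other in some genes, with no test possible. The NdpKO;Ptch+/- MB minus the Ptch+/- MB was 0.75 for Dcx, 0.52 for Stmn2, 0.43 for Mapt and 0.38 for Map2. It was -0.26 for Dclk1 and within 0.10 of 0 for Stmn3, Stmn4, Map6 and Map1b. The median size over the 9 genes was 0.26, against 0.31 over all 8007 measured genes. Cell type markers also differed between MBs and GNPs. The microglial list, 7 of 8 genes at or above level 5, summed to 2250 in the NdpKO;Ptch+/- MB and 4800 in the Ptch+/- MB, against 233 to 337 in NdpKO;Ptch+/- GNPs and 230 to 378 in Ptch+/- GNPs. The astrocyte and Bergmann glia list summed to 17000 and 29900 in the same MBs, against 11400 to 14500 in NdpKO;Ptch+/- GNPs and 7910 to 10300 in Ptch+/- GNPs. The erythroid list, 1 of 2 genes, summed to 995 and 942 in the MBs, against 6580 to 10200 in NdpKO;Ptch+/- GNPs and 4390 to 13600 in Ptch+/- GNPs. The endothelial list summed to 1060 and 969 in the MBs, against 3350 to 7460 in NdpKO;Ptch+/- GNPs and 3100 to 4720 in Ptch+/- GNPs. The Purkinje cell and interneuron list, 4 of 8 genes, summed to 997 and 994 in the same MBs, against 968 to 3180 in NdpKO;Ptch+/- GNPs and 894 to 2160 in Ptch+/- GNPs, with Pcp2 and Gad1 below level 5 in both tumours. The granule neuron list summed to 24900 and 21200 in these MBs, against 19700 to 22300 in NdpKO;Ptch+/- GNPs and 23300 to 24800 in Ptch+/- GNPs. The proliferating progenitor list, 5 of 8 genes, summed to 9150 in the NdpKO;Ptch+/- MB and 14600 in the Ptch+/- MB. In GNPs it ran between 8400 and 10100 for NdpKO;Ptch+/- and between 9050 and 9610 for Ptch+/-. Such sums weigh the brightest genes most, and genes within a list did not all move together. Of the progenitor list, Ccnd1 was called higher in MBs and Cdk1 lower. Of the astrocyte and Bergmann glia list, Gfap, Sox9 and Apoe were called higher and Aqp4 lower. The part of these lists in the differences was not tested.

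Other genes of the microtubule and growth cone machinery were taken from 7 lists with 100 genes, of which 92 were on the array and 73 had a probe at or above level 5. In Ptch+/- versus WT GNPs 2 of the 73 were higher and 0 lower, or 2.74%, against 3.71% of all measured genes. Cdk5r1, which encodes the p35 activator of the kinase Cdk5, was 1.33-fold higher (0.41 ± 0.049, adjusted p = 0.0037), and Marcks, a substrate of protein kinase C in growth cones, was 1.19-fold higher (0.26 ± 0.052, adjusted p = 0.037). Cdk5 is known to phosphorylate tau, Map1b and doublecortin. The interaction of NdpKO and Ptch+/- was called for Cdk5r1 alone of the 73 (1.37%, against 1.77% of all measured genes), at -0.41 ± 0.069 (adjusted p = 0.034). In NdpKO versus WT GNPs 1 of the 73, the adhesion molecule gene Ncam1, was higher by 0.74, where 1.11% of all measured genes were called. In the 3 comparisons of NdpKO;Ptch+/- GNPs 0 were called. The median difference over the 73 genes was 0.07 in Ptch+/- versus WT GNPs, 0.09 in NdpKO versus WT GNPs and -0.18 for the interaction, each nearer to 0 than the median of the 9 genes above.

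The growth cone and axon outgrowth list, 14 of 16 genes at or above level 5, had medians of 0.17 in Ptch+/- versus WT GNPs and 0.17 in NdpKO versus WT GNPs, and 0 of its 14 genes had an interaction above 0. The other tubulin subunits, 9 of 14 genes, had medians of 0.04 and 0.03 in these comparisons. In MBs versus GNPs, 10 of the 73 genes were higher and 13 lower, or 31.5%, against 36.0% of all measured genes. Tubulin subunits were called in 1 direction, with Tubb6 at -1.45, Tuba1a at -0.52 and Tubb2b at -0.37. Of other microtubule-binding proteins, the plus-end protein gene Clasp2 differed by 3.12 and the kinesin-1 cofactor gene Map7 by -2.03. Of growth cone genes, Enah, which promotes actin filament elongation, differed by 2.47, Dpysl4 by 1.35, Ncam1 by 1.01 and Dpysl3 by -0.94. The motor genes Kif21a and Dync1h1 differed by 1.98 and 1.39. Of the tubulin-modifying and severing enzymes, the polyglutamylase subunit gene Ttll1 differed by -2.43 and the severing enzyme gene Spast by -1.34. In that list 4 genes were called lower and 1, Fignl1, was called higher. Of the kinases and partners acting on the members, Mark2 was called higher and Pafah1b1 lower.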

How the data were processed

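RNA of 18 samples was hybridised to single-colour Illumina arrays. The authors corrected background, quantile-normalised and log2-transformed the intensities with neqc of limma, and the deposited log2 values were used with no further step. The filter of the authors on probe quality was not applied. Probes were named through the array annotation. Of 45281 probes, 34885 had 1 symbol, 18 several and 10378 none. Array number limits the precision, and near background differences are compressed, so a fold against a group below level 5, a limit chosen after the data were seen, is a lower bound.

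Linear models with empirical Bayes moderation were fitted with limma 3.58.1 under R 4.3.3 to all probes. The model held 1 mean per genotype over the 16 GNP arrays, and tissue with genotype as a covariate over 2 MBs and 8 GNP arrays. Tests were two-sided, adjusted by Benjamini-Hochberg over 45281 probes and called below 0.05. The code was tested on simulated data. The genes, the 7 related lists, the marker lists and the 2 arrays left out together were chosen with earlier results of these data known. By the naming rule all 10 genes were named, and of other lists the called genes with the largest differences. Fits with 1 array left out, other probes, filters, normalisations, variance models, array weights, other groupings and a replicate block were tried. Replicate numbers did not pair the arrays: 24 same-numbered pairs had a median correlation of -0.041 (-0.34 to 0.47). Upstream sequences came from RefSeq (GRCm38.p6).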

Additional observations from a re-analysis of the deposited data

Results flagged for a closer look

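In Ptch+/- GNPs, Dclk1 of replicate 4 read 7.69 on the log2 scale, apart from its group, in which the nearest array read 8.02 and the gap took 0.849 of the range. It was the 1 such array among 36 groups of 4 examined, and chance gives about 1 in 20. Without it, or any other array, the Dclk1 difference between Ptch+/- and WT GNPs ran between 0.38 and 0.58 and was not called.

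At the Map6 probe ILMN_1213815 the difference with Ndp loss depended on the Ptch genotype, by a test of the interaction itself (-2.52 on the log2 scale, limma, adjusted p = 0.039). All 4 WT arrays and 3 of the 4 NdpKO;Ptch+/- arrays lay below level 5 at this probe, so part of its range is near background. Map6 probe ILMN_2744006 gave -0.22 ± 0.56 and was not called (limma, adjusted p = 0.92).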

How the results depend on the processing

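Of the 9 genes, Map6 was the 1 whose calls among GNPs moved with the setting. For Ptch+/- versus WT GNPs 0 genes were called with cyclic loess (Map6 0.93, adjusted p = 0.056) and with the array of disagreeing labels placed in NdpKO (adjusted p = 0.079). For the interaction 1 gene, Map6, was called with dim probes removed, a trended and robust variance, array weights, a replicate block (adjusted p = 0.043) and the 2 arrays left out, and 1 when any probe of a gene counted. For any genotype difference 1 was called with dim probes removed, a trended and robust variance or those 2 arrays out. With them out, NdpKO versus WT, NdpKO;Ptch+/- versus Ptch+/- and NdpKO;Ptch+/- versus NdpKO GNPs had 1 each. Calls over all probes then numbered 1070, 922 and 656 in these comparisons, against 139, 7 and 2 with all arrays. With 1 array left out, the counts ran from 0 to 0 for Ptch+/- versus WT and from 0 to 1 for NdpKO versus WT, the interaction and any genotype difference. The cause of these changes was not tested, beyond fewer arrays or probes in some.

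In MBs, 4 to 6 genes were called over 21 settings. Of called differences, that of Dclk1 reversed at 1 other probe, ILMN_1259689, to 1.08. With a replicate block, which moved no other call among the GNPs, Stmn3 (adjusted p = 0.072) and Mapt (0.10) were lost. Mapt was called in 5 of 11 settings, and lost among others with cyclic loess (0.083) and array weights (0.11). Array medians over bright probes moved by at most 0.012 with centring. Counts over all probes varied more, from 116 to 1458 for Ptch+/- versus WT and from 2 to 2577 for the interaction. Of the 16 GNP arrays, 4 correlated best with their own replicate number. Groups of 4 and single tumours limit what can be called.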
